A study of Mus musculus with 6 samples.

Results

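Chemokines and their receptors were described in bone marrow-derived macrophages, cells grown in culture from mouse marrow, with Hdac2 intact or targeted. The members were the genes with a numbered Ccl, Cxcl, Ccr, Cxcr or Ackr symbol together with Cx3cl1, Cx3cr1, Pf4, Ppbp and Ccrl2, and Cxcl12 and Ccr2 were left out. This gave 37 of the 17313 genes measured, 23 ligands and 14 receptors. RNA-seq was done on 6 libraries from C57BL/6 mice, every one with floxed Hdac2 and with Lewis lung carcinoma cells (LLC1) given intravenously. Marrow was collected on day 20. The 3 libraries labelled WT were Hdac2fl/fl without Cre. The 3 labelled HDAC2_KO_BMDMs (KO here) were Hdac2fl/fLysMCre, in which Cre recombinase is driven from the lysozyme gene Lyz2 in cells of the myeloid lineage. Age, sex, the deleted exon and whether each library came from its own mouse are not given in the sources used here. The p-values therefore measure the spread between these libraries, which may be partly technical. The comparison asks how targeting Hdac2, which encodes a histone deacetylase, changes macrophage RNA in tumour-bearing mice.

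Chemokines are small secreted proteins that guide leukocytes along concentration gradients, and they are classed as CC, CXC or CX3C by the spacing of their first cysteines. Most signal through receptors coupled to inhibitory G proteins, while atypical receptors bind ligand without that coupling and shape the gradient. Macrophages both make chemokines, largely under NF-kB, interferon and STAT control, and respond to them, and many of the genes lie side by side in chromosomal clusters that arose by gene duplication.

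Values are reads per gene multiplied by a factor for each library and rounded, called scaled counts here, with library totals from 5704313 to 5837994. Hdac2 was at 534, 482 and 518 in the WT libraries (WT 1, WT 2, WT 3 in that order throughout) against 392, 387 and 375 in the KO libraries (KO 1, KO 2, KO 3), a ratio of means of 0.752 without overlap. The macrophage markers Csf1r, Adgre1 and Cd68 were high in all libraries, and the 19 macrophage genes summed to 22518 to 23207 in WT and to 21085 to 21673 in KO, also without overlap. WT 1 stood apart from the other WT libraries. Its Xist was at 5243, against 0 in WT 2, 74 in WT 3 and 3298 to 4997 in KO, and the summed values of 14 fibroblast and marrow stroma genes were 16233 in WT 1, 7272 in WT 2, 8128 in WT 3 and 16352 to 19314 in KO. Every difference below is therefore given against all 3 WT libraries and, where it matters, against WT 1 alone or without WT 1. The Y-linked gene Ddx3y was at 44, 308 and 745 in WT against 10, 0 and 0 in KO, so sex-linked transcripts also differed in the full comparison, with WT 1 in between. Sex is not in the labels, and its part in the values below was not tested. Without WT 1, genotype and the Xist split coincide and cannot be told apart.

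Of the 37 members, 24 reached 10 in 3 or more libraries and were tested, 17 ligands and 7 receptors. With limma, 0 members were called higher (0% of all tested genes) and 0 lower (0% of all tested genes) in KO at an adjusted p under 0.05. At an unadjusted p under 0.05, 7 members were lower (29.2%, against 9.68% of the 13260 genes tested) and 2 higher (8.33%, against 14.7%). The 7 were Ccl3, Ccl4, Ccl6, Ccl9, Ccr1, Ccr3 and Ccrl2, and the 2 were Cx3cl1 and Cxcr4. The groups did not overlap in 6 members, with all KO values under the WT values in 4 (16.7%, against 13.4% of tested genes) and over them in 2 (8.33%, against 16.1%), shares near or under those of all genes. The median log2 difference, KO minus WT, was -0.04 over the members and -0.0046 over all tested genes.

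The members fell into sets according to where WT 1 lay. The KO mean was below both WT 1 and the mean of WT 2 and WT 3 in 12 of the 24 members (50%, against 36.1% of all tested genes), above both in 2 (8.33%, against 34.6%), and on different sides of them in the other 10. Against WT 1 alone the KO mean was lower in 21 members (87.5%, against 50.4% of tested genes), with a median of -0.21 over the members and -0.0017 over all genes. In 17 members the value of WT 1 was closer to that of KO than to that of the other WT libraries (70.8%, against 66.4%). Without WT 1, limma called 6 members higher (12.8% of all tested genes were) and 3 lower (5.07% of all tested genes were) at an adjusted p under 0.05. Those higher were Ccl7, Ccl12, Cx3cl1, Cxcl16, Cx3cr1 and Cxcr4, and those lower were Ccl6, Ccl9 and Ccr3.

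**Figure D1:**
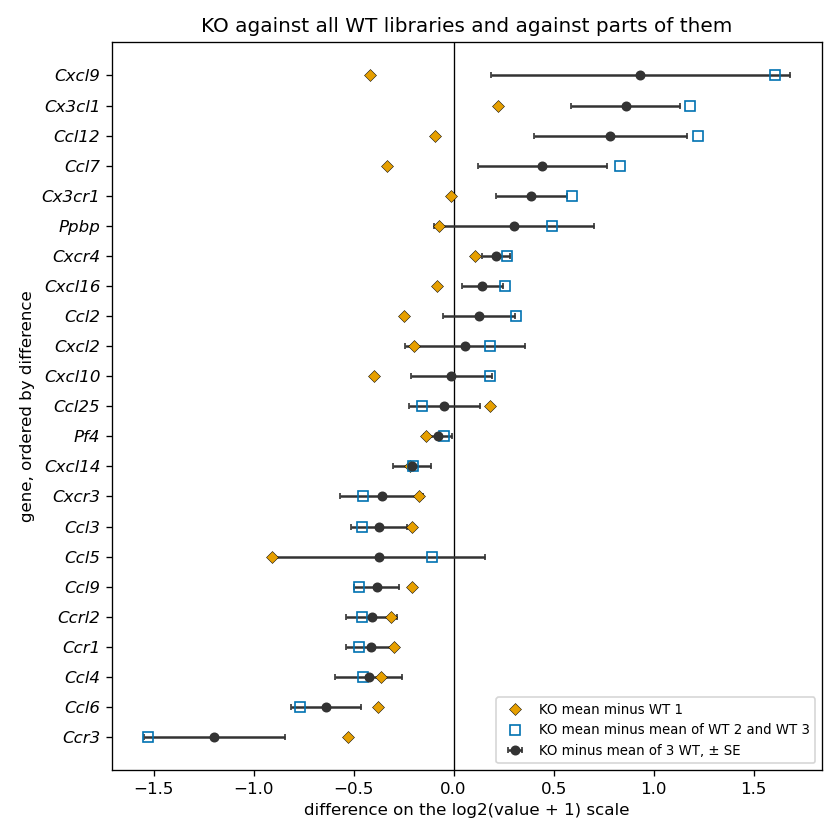
Difference between KO and WT on the log2(value + 1) scale (x axis) for 23 tested members (y axis, ordered by size); black points with bars are KO minus all 3 WT libraries ± SE, diamonds KO minus WT 1 and open squares KO minus the mean of WT 2 and WT 3. Diamonds lie left of 0 in 20 of the 23 genes, while the open squares spread to both sides, from -1.53 for Ccr3 to 1.61 for Cxcl9.

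The largest block of lower values came from CC ligands that lie together on chromosome 11. Ccl5, Ccl9, Ccl6, Ccl3 and Ccl4 occupy 139 kb there (83525778 to 83664683, mm10), and in all 5 the KO mean was below WT 1 and below the mean of the other WT libraries. Ccl6 and Ccl9 encode rodent CC chemokines made by myeloid cells that act through CCR1, and Ccl3 and Ccl4 encode the macrophage inflammatory proteins, of which Ccl3 also binds CCR1. The start regions of Ccl6 and Ccl9 are shown because these neighbours were the 2 ligands lower in every KO library than in every WT library. Each run is the RefSeq window (GRCm38.p6) from 250 bases before the gene's start to 50 after it, on the gene's strand (minus for both), and the capitals mark the stretch that aligned between them, with 59 identical bases in 74 alignment columns (79.7%).

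Ccl6 (chr11:83593038-83593337): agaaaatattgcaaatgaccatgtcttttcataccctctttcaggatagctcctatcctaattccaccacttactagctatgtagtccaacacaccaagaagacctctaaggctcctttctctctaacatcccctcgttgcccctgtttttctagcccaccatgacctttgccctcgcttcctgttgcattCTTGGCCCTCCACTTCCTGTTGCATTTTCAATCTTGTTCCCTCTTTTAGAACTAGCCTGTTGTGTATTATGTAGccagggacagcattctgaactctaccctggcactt
Ccl9 (chr11:83578587-83578886): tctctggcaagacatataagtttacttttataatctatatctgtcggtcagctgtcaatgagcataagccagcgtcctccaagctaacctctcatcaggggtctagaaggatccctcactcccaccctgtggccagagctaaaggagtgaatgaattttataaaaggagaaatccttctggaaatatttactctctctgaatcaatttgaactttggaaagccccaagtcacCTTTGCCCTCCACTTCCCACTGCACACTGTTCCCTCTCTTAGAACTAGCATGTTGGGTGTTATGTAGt

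The aligned stretch ran from -59 to 15 relative to the start of Ccl6 and from -18 to 49 relative to that of Ccl9, so the annotated starts are offset within shared sequence. The Ccl9 window held 3 matches to TATAAA on either strand, at -224, -94 and -92 (the last 2 overlap), 1 to GGGNNNNNCC, a loose form of the site bound by NF-kB, at -35, and 1 to TGANTCA, a form of the AP-1 site, at -53, whereas none of these lay in the Ccl6 window. These matches are descriptions of letters, not binding sites.

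Ccl6 was at 533, 768 and 636 in WT against 364, 379 and 500 in KO, or 646 ± 118 against 414 ± 74.6 (SD, n = 3 each). WT 1 was the lowest WT library and KO 3 the highest KO library, and the gap between them was small. Fewer cells of a type and less RNA per cell cannot be told apart in such bulk samples. The log2 difference was -0.64 ± 0.17 (SE) with a limma adjusted p of 0.158, so the call was not made, although without WT 1 it was -0.77 with an adjusted p of 0.027 (range over all alternatives 0.027 to 0.799) and against WT 1 alone -0.38. Ccl9 was at 933, 1219 and 1028 in WT against 758, 781 and 887 in KO. Its libraries had the same order at the edges, with WT 1 lowest in WT and KO 3 highest in KO. The log2 difference was -0.38 ± 0.11 (limma adjusted p = 0.158), and without WT 1 it was -0.47 with an adjusted p of 0.031 (range over all alternatives 0.031 to 0.791) and against WT 1 alone -0.21.

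Ccl3 was at 274, 348 and 305 in WT against 225, 210 and 282 in KO. Ccl4 was at 236, 280 and 226 in WT against 171, 156 and 231 in KO. In both genes KO 1 and KO 2 lay under all WT libraries while KO 3 overlapped with WT, and the log2 differences were -0.37 ± 0.14 and -0.42 ± 0.17 (limma adjusted p = 0.183 and 0.194), with -0.21 and -0.36 against WT 1 alone. Ccl5, the T cell and monocyte attractant RANTES at the edge of this block, was low and scattered, at 53, 19 and 47 in WT against 44, 15 and 32 in KO, with a log2 difference of -0.38 ± 0.53 (adjusted p = 0.712). Without KO 3, 9 members were lower in every KO library than in every WT library, against 25.4% of tested genes under that setting.

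Another block of CC ligands on the same chromosome behaved otherwise. Ccl2, Ccl7, Ccl12 and Ccl8 lie within 81 kb (82035571 to 82116799). Ccl2, Ccl7 and Ccl12 encode monocyte chemoattractant proteins, ligands mainly of CCR2. Ccl12 was at 156, 53 and 73 in WT against 156, 149 and 135 in KO, and Ccl7 at 184, 82 and 81 in WT against 149, 138 and 151 in KO. Ccl2 was at 360, 223 and 267 in WT against 307, 276 and 330 in KO. In each of the 3 genes WT 1 was at the top or level with the top of all 6 libraries, while WT 2 and WT 3 lay under every KO library. The log2 differences against all WT were 0.78 ± 0.38, 0.44 ± 0.32 and 0.13 ± 0.18 for Ccl12, Ccl7 and Ccl2, with limma adjusted p-values of 0.261, 0.440 and 0.711. Against WT 1 alone they turned to -0.09, -0.33 and -0.25. Without WT 1, Ccl12 and Ccl7 were called higher in KO, at 1.22 and 0.83 (adjusted p = 0.0069 and 0.0050, range over alternatives 0.0069 to 0.895 and 0.0050 to 0.790), and Ccl2 was at 0.31 (adjusted p = 0.129). The direction for this block thus rested on which WT libraries were used. Ccl8 had at most 9 in any library and was not tested. The stroma genes split the libraries in the same way, with 11 of the 12 tested stroma genes higher in KO by mean, and their part in these values was not tested.

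**Figure D2:**
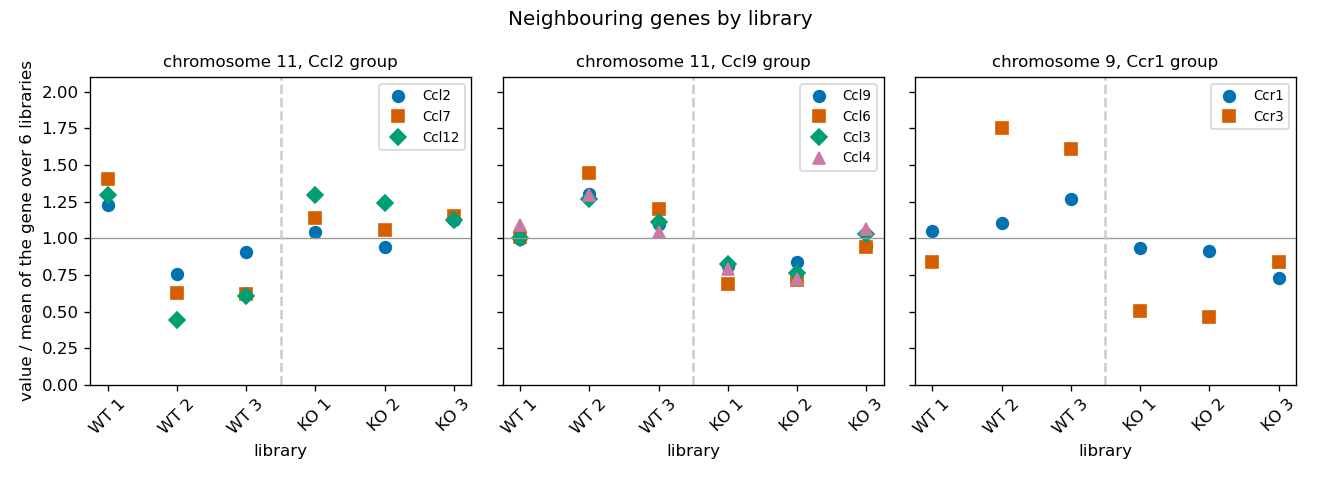
Value of each gene divided by its mean over the 6 libraries (y axis) in each library (x axis) for the neighbouring genes Ccl2, Ccl7 and Ccl12, for Ccl9, Ccl6, Ccl3 and Ccl4, and for the receptors Ccr1 and Ccr3. WT 1 joins the KO libraries in the first panel; in the second, KO 1 and KO 2 are lowest; in the third, Ccr3 spreads more widely than Ccr1.

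The remaining CC ligands, those of lymphoid tissue and barrier surfaces, were scarce. Ccl25, which attracts thymocytes and gut-homing lymphocytes, was the only one tested, at 90, 104 and 125 in WT against 114, 111 and 84 in KO, with a log2 difference of -0.05 ± 0.18 (limma adjusted p = 0.907). Of its exonic bases, 204 are shared with exons of Elavl1 on the other strand, and counting by strand is not stated. Ccl28, a mucosal ligand, was at 4, 30 and 14 in WT against 7, 2 and 0 in KO, and Ccl17, a ligand of CCR4, was at 3, 0 and 1 in WT against 9, 6 and 9 in KO. Ccl22, the other CCR4 ligand, did not exceed 3. These low values were not tested.

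The CXC ligands that recruit neutrophils were near the limit of measurement. Cxcl2 was at 45, 28 and 42 in WT against 28, 41 and 52 in KO, with overlapping groups and a log2 difference of 0.06 ± 0.30 (limma adjusted p = 0.932) that turned to -0.16 under cyclic loess. Cxcl1 and Cxcl5 had highest values of 10 and 11. Ppbp, a platelet chemokine, was at 11, 5 and 10 in WT against 8, 14 and 10 in KO, a difference of 0.30 ± 0.40 (adjusted p = 0.688) that was -0.16 under cyclic loess. Cxcr2, their shared receptor, was at 4, 4 and 6 in WT against 2, 2 and 1 in KO, too low to test, and Cxcr1 did not exceed 4. Of 12 neutrophil genes 3 were measured, with sums of 356 to 411 in WT and 360 to 423 in KO. Most of this was Csf3r, at 309, 280 and 298 in WT against 307, 348 and 285 in KO. The groups overlapped for Csf3r and Mmp8. S100a8 was lower in every KO library, at 20, 23 and 26 in WT against 15, 9 and 12 in KO (-0.90 ± 0.27, limma adjusted p = 0.158).

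Pf4, platelet factor 4, had by contrast the highest mean per exonic base among the member ligands, at 308, 304 and 274 in WT against 272, 283 and 284 in KO. In WT its level per exonic base did not differ from that of Ccl3 beyond the spread. The groups overlapped for Pf4 and differed by -0.08 ± 0.07 (limma adjusted p = 0.535). Platelet and megakaryocyte markers varied in level. Gp1ba was at 0, 0 and 5 in WT against 0, 0 and 1 in KO, and Treml1 at 45, 88 and 53 against 34, 34 and 45. The 6 such genes measured summed to 493 to 560 in WT and 487 to 616 in KO. Most of this was the integrin gene Itgb3, at 501, 457 and 414 in WT against 463, 431 and 558 in KO. The part of these genes in the Pf4 values was not tested. Cxcl10, an interferon-induced CXCR3 ligand, was at 134, 87 and 92 in WT against 93, 94 and 120 in KO, a log2 difference of -0.01 ± 0.20 (adjusted p = 0.981). Cxcl9, its neighbour in a cluster of 28 kb on chromosome 5, was at 22, 3 and 7 in WT against 31, 15 and 9 in KO. Its difference of 0.93 ± 0.75 (adjusted p = 0.485) was the largest positive one among the tested members and lay within the spread of these low values, turning to -0.42 against WT 1 alone. Both genes were highest in WT 1 among the WT libraries. Cxcr3, the receptor of these ligands, was at 103, 136 and 115 in WT against 73, 87 and 119 in KO, with a difference of -0.36 ± 0.21 (adjusted p = 0.333), -0.18 against WT 1 alone, and KO 3 overlapping with WT.

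Cx3cl1, which encodes fractalkine, a membrane-tethered chemokine and the only CX3C ligand, was higher in every KO library than in every WT library. It was at 296, 161 and 143 in WT against 340, 322 and 375 in KO, or 200 ± 83.6 against 346 ± 27.0 (SD, n = 3 each). WT 1 lay close to KO, and WT 2 and WT 3 lay far under it. The log2 difference was 0.86 ± 0.27, a KO mean 1.73 times the WT mean, with a limma adjusted p of 0.158. Without WT 1 it was 1.18 (adjusted p = 0.0014, range over alternatives 0.0014 to 0.791), and against WT 1 alone 0.22. Some fibroblast and stroma genes also had low values in WT 2 and WT 3, for example Pdgfrb at 818, 196 and 204 in WT against 1269, 1082 and 931 in KO. Within KO the order differed, with KO 3 the highest for Cx3cl1 and the lowest for Pdgfrb. Of the 14 such genes 12 were tested, and 11 of these were higher in the KO mean. The exception, Kitl, was lower in every KO library (680, 540 and 806 against 431, 448 and 353). The part of the stroma genes in the Cx3cl1 values was not tested. Fractalkine is also made by epithelium and endothelium. Of 8 epithelial genes 2 were measured, and Krt19 was at 22, 10 and 1 in WT against 95, 73 and 75 in KO. The 9 endothelial genes measured summed to 836 to 1482 in WT and 515 to 827 in KO, most of which was Vwf, at 626, 1374 and 790 in WT against 316, 404 and 640 in KO. The other 3 of the 4 tested endothelial genes, Kdr, Cdh5 and Pecam1, were higher in KO by mean (0.48, 0.69 and 0.40), and the median of the 4 was 0.44. Against WT 1 alone these 3 genes were at -0.12, -0.27 and 0.13, and the median of the 4 was -0.20. The part of these lists in the Cx3cl1 values was not tested either.

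The Cx3cl1 start region is shown because the series concerns HDAC2 together with SP1, a factor that binds GC boxes, and this gene had the larger difference of the 2 members higher in every KO library. The run is the RefSeq window (GRCm38.p6, plus strand) built as above, and the capitals mark a GC box, GGGCGG, at -27 and a TATAAA at -6. The gene as counted starts at 94772009, upstream of this RefSeq start, so both marked matches lie within the counted gene.

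Cx3cl1 (chr8:94771930-94772229): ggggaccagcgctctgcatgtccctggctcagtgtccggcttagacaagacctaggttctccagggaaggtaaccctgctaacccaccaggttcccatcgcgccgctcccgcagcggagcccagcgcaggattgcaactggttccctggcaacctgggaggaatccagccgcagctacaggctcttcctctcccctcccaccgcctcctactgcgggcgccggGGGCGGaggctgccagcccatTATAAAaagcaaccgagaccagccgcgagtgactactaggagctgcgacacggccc

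RefSeq windows were found for 29 of the 37 members, 32 windows in all. On either strand GGGCGG was found in 8 of the 32 member windows (25%, against 35.7% of 32851 windows of the same length), including 3 matches each for Cxcr4 and Cxcl14. GGGNNNNNCC was found in 16 (50%, against 50.8%), TATAAA in 10 (31.2%, against 13.6%) and TGANTCA in 6 (18.8%, against 7.81%). Of the 4 members without overlap that were lower in KO, Ccl6, Ccl9 and Ccr1 held no GGGCGG, and of the 3 windows of Ccrl2 only 1 held it, at -195. Cxcr4 and Cx3cl1, the 2 that were higher, both held it. Among the other tested members, Cxcl14 and Cxcl2 also held it, with log2 differences of -0.21 and 0.06. Ackr3, Ccl28 and Cxcr1 held it as well and were too low to test. A link between this motif and the differences was not tested.

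The differences of the other ligands were small. Cxcl16, a transmembrane chemokine that also binds oxidized lipoprotein, was at 933, 718 and 754 in WT against 854, 892 and 895 in KO. Its difference of 0.14 ± 0.10 (limma adjusted p = 0.426) became 0.26 without WT 1 (adjusted p = 0.029, range over alternatives 0.029 to 0.844) and -0.08 against WT 1 alone. Exons of Zmynd15 on the other strand cover 552 of its 3021 exonic bases. Cxcl14, a homeostatic chemokine of epithelia and stroma, was at 683, 717 and 638 in WT against 560, 538 and 672 in KO, a difference of -0.21 ± 0.10 (adjusted p = 0.246). KO 3 again overlapped with WT, and the value was nearly the same against WT 1 alone, at -0.22.

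**Figure D3:**
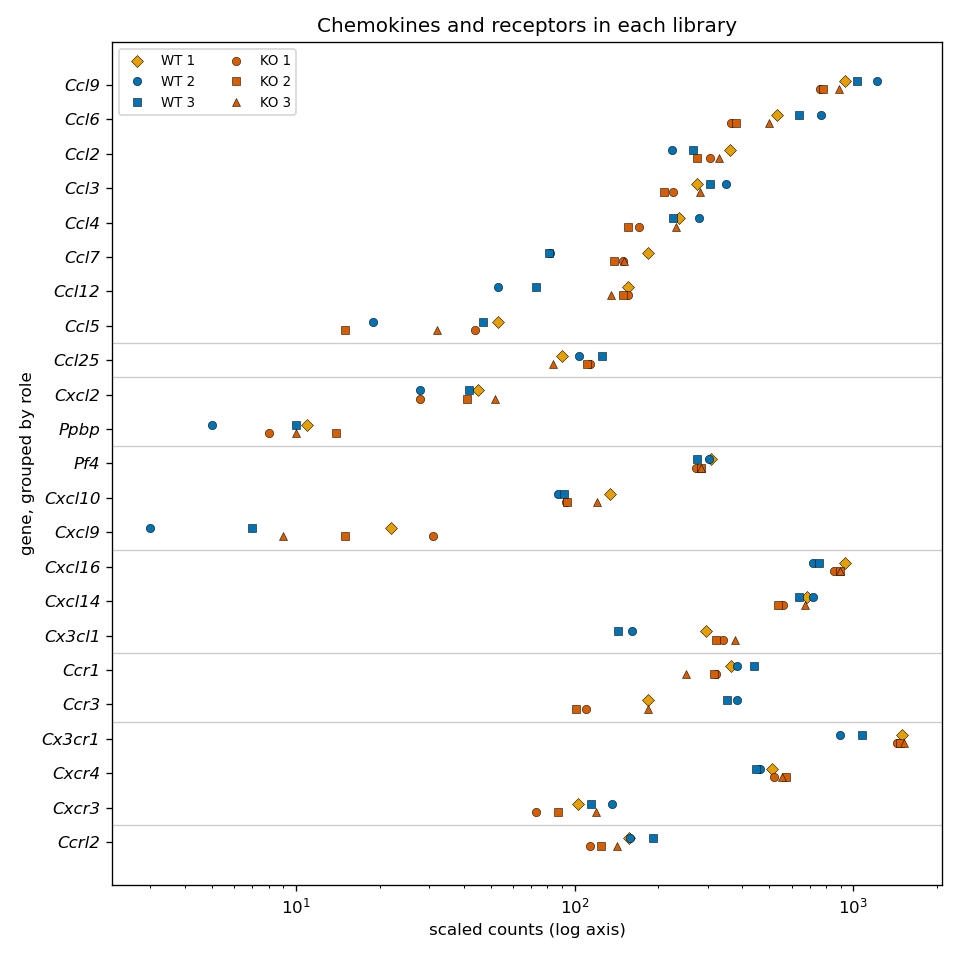
Scaled counts (x axis, log scale) of 23 tested members (y axis, grouped by role with lines between groups) in each of the 6 libraries. WT 1, drawn as a diamond, sits with the KO libraries for Ccl7, Ccl12, Cx3cl1 and Cx3cr1, and Pf4 is nearly level across libraries.

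Among the signalling CC receptors, Ccr1 and Ccr3 had lower means in KO, and they lie near each other on chromosome 9 (123962124 to 123968692 and 124021972 to 124031689, mm10). Ccr1, a receptor for Ccl3, Ccl6 and Ccl9, was at 363, 382 and 439 in WT against 322, 317 and 252 in KO, so that every KO library was lower. Here KO 3 was the lowest library, unlike in the ligands. The log2 difference was -0.41 ± 0.12, a KO mean 0.753 of WT, with a limma adjusted p of 0.158. Against WT 1 alone it was -0.30, and without WT 1 -0.47 (adjusted p = 0.064, range over alternatives 0.064 to 0.808).

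Ccr3, the eotaxin receptor best known from eosinophils, had the largest difference of all tested members. It was at 183, 383 and 353 in WT against 110, 101 and 183 in KO, or 306 ± 108 against 131 ± 45 (SD, n = 3 each), and WT 1 and KO 3 were equal. The difference was -1.20 ± 0.35, a KO mean 0.429 of WT (adjusted p = 0.158). Without WT 1 it was -1.53 (adjusted p = 0.014, range over alternatives 0.014 to 0.844) and against WT 1 alone -0.53. The sums of the 6 dendritic cell genes measured had the same order of libraries in part, at 1853, 2694 and 2538 in WT against 1331, 1328 and 1747 in KO, most of which was the integrin gene Itgax. Of the 5 tested, 4 had lower means in KO, while Zbtb46 was higher in every KO library (37, 16 and 22 against 51, 43 and 48). The 5 mast cell and basophil genes measured summed to 33 to 66 in WT and 76 to 149 in KO. Of these, Mcpt8 (36, 0 and 4 against 94, 75 and 37) and Gata2 (20, 10 and 12 against 40, 31 and 28) were higher in every KO library, while Kit (4, 18 and 9 against 4, 3 and 6) and Hdc (6, 5 and 9 against 6, 2 and 3) were too low to test and had lower means in KO. The part of these lists in the Ccr3 values was not tested. Ccr9 and Ccr10 did not exceed 4 and 3.

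Cx3cr1 and Cxcr4 had the highest means per exonic base among the member receptors. Cxcr4, which holds leukocytes in marrow through its ligand CXCL12, was at 509, 463 and 449 in WT against 518, 573 and 555 in KO. All KO libraries were higher, by a narrow margin over WT 1. The log2 difference was 0.21 ± 0.07 (limma adjusted p = 0.160), 0.27 without WT 1 (adjusted p = 0.047, range over alternatives 0.047 to 0.851) and 0.11 against WT 1 alone. Cx3cr1, the fractalkine receptor of monocytes and tissue macrophages, was at 1492, 894 and 1077 in WT against 1438, 1473 and 1522 in KO. WT 1 was within the KO range and the other WT libraries under it. The difference was 0.39 ± 0.18 (adjusted p = 0.242), 0.59 without WT 1 (adjusted p = 0.0090, range over alternatives 0.0090 to 0.965) and -0.01 against WT 1 alone. Ligand and receptor of the fractalkine pair thus both lay higher in KO than in WT 2 and WT 3, while against WT 1 the difference was positive for the ligand and near 0 for the receptor. Cxcr6, the receptor of Cxcl16, did not exceed 8.

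Of the atypical receptors only Ccrl2, which presents the chemoattractant chemerin and does not signal by itself, was tested. It was at 157, 158 and 191 in WT against 114, 124 and 142 in KO, lower in every KO library, and the position of WT 1 was that of WT 2. The log2 difference was -0.41 ± 0.13, a KO mean 0.751 of WT (limma adjusted p = 0.158), -0.31 against WT 1 alone and -0.46 without WT 1 (adjusted p = 0.083, range over alternatives 0.083 to 0.799). Ackr3 and Ackr4 had highest values of 9 and 14.

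Levels can be compared between genes only per length. If duplicate reads were removed, which is not stated, the highest levels would be capped and the gaps between them understated. Per kilobase of exon, the level of Pf4 was 410 ± 25.8 in WT and 388 ± 9.23 in KO scaled counts, and that of Ccl3 was 403 ± 48.5 and 312 ± 49.6 (SD, n = 3 each). In WT the next ligands, Ccl4 at 375, Cxcl14 at 372, Ccl6 at 360 and Ccl9 at 348, did not differ from Ccl3 or from each other beyond their spread. In KO, Ccl6 was at 231 and Ccl9 at 266, below Cxcl14 at 323 and near Ccl2 at 267 and Ccl12 at 273. Of the receptors described, the order in KO was Cx3cr1 at 328, Cxcr4 at 303, Ccr1 at 105, Cxcr3 at 53.7, Ccrl2 at 48.8 and Ccr3 at 40.1. With KO SDs of 13.6, 5.46 and 13.7, Cxcr3, Ccrl2 and Ccr3 did not differ beyond their spread. The KO SDs of Cx3cr1 and Cxcr4 were 9.37 and 15.5. In WT the order was Cxcr4 at 262, Cx3cr1 at 256, Ccr1 at 139 and Ccr3 at 93.6, and the first 2 did not differ beyond their spread.

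**Figure D4:**
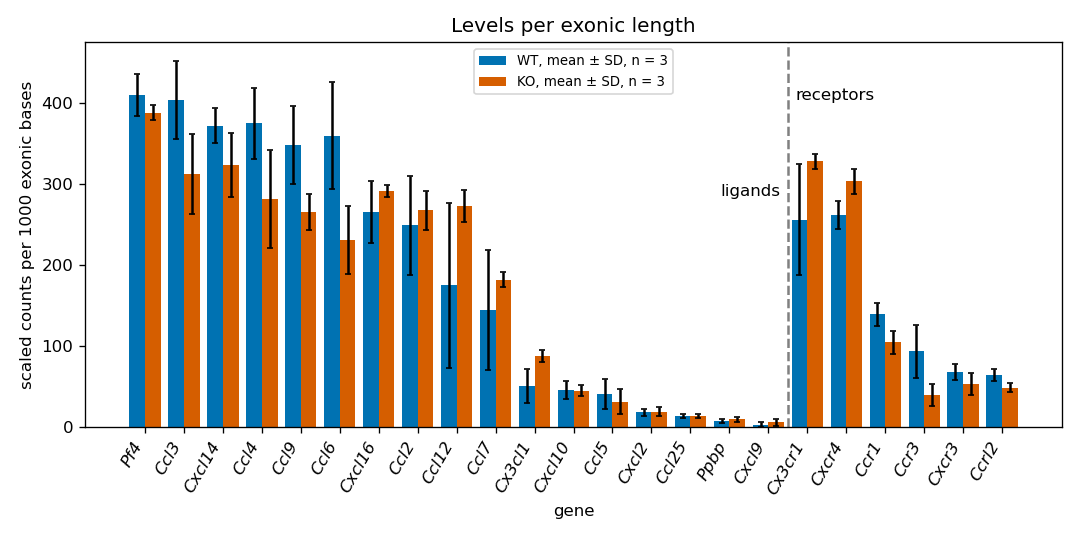
Scaled counts per kilobase of exon (y axis) of 23 tested members (x axis), ligands left and receptors right of the dashed line; bars are means and error bars SD over 3 libraries each of WT and KO. Pf4, Ccl3, Cxcl14, Ccl4, Ccl9 and Ccl6 lead the ligands, and Cx3cr1 and Cxcr4 the receptors.

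Most listed genes of chemokine receptor signalling had a slightly lower mean in KO, without passing the test. The list holds genes that carry the signal and genes that dampen it, so its counts give no direction of signalling. Of 42 listed genes 40 were measured, and all of these were tested. By mean 33 were lower in KO and 7 higher, and their median difference was -0.10 (-0.0046 over all tested genes). Every KO library lay below WT in 19 and above in 4, beside 13.4% and 16.1% of all tested genes. At an unadjusted p under 0.05, 10 were lower and 3 higher, beside 9.68% and 14.7% of all tested genes, but none passed the limma test after adjustment. Among those with the smallest p were Rgs1, a brake on G protein signalling, at 708, 735 and 841 in WT against 525, 499 and 598 in KO, the Src-family kinase gene Fgr (102, 101 and 171 against 62, 60 and 58), and Dock2, which activates Rac during migration (2675, 3305 and 3014 against 2355, 2414 and 2524). All 3 had lower values in every KO library than in every WT library, and their differences were -0.49 ± 0.10, -0.998 ± 0.22 and -0.30 ± 0.09 (limma adjusted p = 0.158 each). The largest difference of the list went the other way, with Gnai1, an inhibitory G protein subunit gene, at 33, 4 and 7 in WT against 79, 56 and 40 in KO (2.37 ± 0.73, limma adjusted p = 0.158). Against WT 1 alone Gnai1 was at 0.75, and Rgs1, Fgr and Dock2 were at -0.39, -0.76 and -0.14. The Gnai1 paralog Gnai2 differed by -0.10 ± 0.06 and the arrestin gene Arrb2 by -0.04 ± 0.05. The macrophage markers had a median of -0.13, with 9 of 18 tested genes lower in every KO library, and their part in these values was not tested.

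Genes of the pathways that induce chemokines were listed as well. Inhibitors such as Nfkbia and Zfp36 are among them, so the counts give no direction of induction. Of 39 genes 37 were tested, of which 27 were lower and 10 higher in KO by mean, and their median difference was -0.10. Every KO library lay below WT in 10 and above in 3 (13.4% and 16.1% of all tested genes), and at an unadjusted p under 0.05, 9 were lower and 4 higher (9.68% and 14.7% of all tested genes). None passed after adjustment. The part of the macrophage marker values, with their median of -0.13, was not tested here either. Il4ra, the interleukin 4 receptor chain, was at 1307, 978 and 978 in WT against 1453, 1554 and 1431 in KO. Lower values were found for the Toll-like receptor adaptor gene Myd88 (580, 648 and 606 against 504, 492 and 554) and for the TNF receptor gene Tnfrsf1b (1648, 2012 and 1837 against 1399, 1416 and 1595), with a limma adjusted p of 0.158 in each case. The log2 difference of Il4ra was 0.46 against all WT and 0.18 against WT 1 alone. Myd88 and Tnfrsf1b were at -0.24 and -0.32 against all WT, and each was at -0.17 against WT 1 alone. The NF-kB subunit gene Nfkb1 was level, at 1179 ± 11.1 and 1165 ± 13.3 (SD, n = 3 each), and Il1b did not exceed 8 in any library.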

How the data were processed

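Poly(A) RNA from 6 libraries (WT and KO, 3 each) had been sequenced as single reads of 72 bases after a stranded kit, per the labels' protocols. The authors deposited 1 table with a score per gene and library, read counts multiplied by a factor for each library and rounded to whole numbers, so no count model was fitted and counting error is unknown. Among the tools in the submitters' processing notes are featureCounts 2.0.3, Picard 2.27.4 and DESeq2 1.36.0, besides STAR 2.7.10a and Trimmomatic 0.39. The build is mm10, and the roles of the tools are not given. No gene exceeded 0.850 per exonic base (GENCODE M21). If duplicate reads were removed, which is not stated, short abundant genes such as chemokines would be capped and their differences understated. Tested ligands had a median exonic length of 1795 bases, against 4387 for all tested genes.

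The 13260 genes that reached 10 in 3 or more libraries entered one limma fit (limma 3.58.1, R 4.3.3) of log2(value + 1) with trend. Tests were two-sided and p-values were adjusted after Benjamini and Hochberg over all these genes, with a threshold of 0.05. Fold changes of low genes are understated on this scale. Differences are KO minus WT. The fit was tested on simulated data. Members, lists, the naming rule and the alternatives were chosen with earlier results of these data known. The rule gave values in every library to members without overlap, the 2 with the highest mean and the one with the smallest p in each role class, and the 6 largest differences among members with a mean of at least 20. Other tested members were added after their values were seen. Some items are not reported here, though the counts include them. Neighbours lay within 200000 bases. Alternatives were other pseudocounts, filters and scalings, libraries left out, WT 1 as the only WT library and a replicate block. Tables were made with Python 3.11.15 and pandas 2.3.3.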

Additional observations from a re-analysis of the deposited data

How the results depend on the processing

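With limma, leaving out each library in turn gave 0 to 1691 higher and 0 to 672 lower genes, and 0 to 6 higher and 0 to 3 lower members, all of the calls coming without WT 1. Members without overlap numbered 2 to 9 above and 4 to 9 below over these fits (9 above without WT 1, beside 24.5% of all tested genes; 7 below without WT 3, beside 16.5%; 9 below without KO 3, beside 25.4%), and 13 were below with WT 1 as the only WT library, beside 24.6%. The median difference of the members was -0.14 under cyclic loess and -0.21 with WT 1 as the only WT library. With WT 1 as the only WT library the difference changed sign for Ccl12 (-0.091), Ccl7 (-0.33), Cxcl9 (-0.42), Cx3cr1 (-0.014), Cxcl16 (-0.084), Cxcl2 (-0.20), Ppbp (-0.073), Ccl2 (-0.25) and Ccl25 (0.18). Under cyclic loess it did so for Cxcl2 (-0.16) and Ppbp (-0.16). Leaving out 1 library moved Ccl25 from -0.16 to 0.093, Cxcl10 from -0.13 to 0.18, Cxcl2 from -0.15 to 0.29 and Ppbp from -0.010 to 0.49. The cause was not tested. Of the same-numbered libraries only WT 1 and KO 1 deviated together (correlations of 0.53, -0.36 and 0.02 over tested genes). Pairs of unlike number ranged from -0.55 (WT 1 with KO 3) to 0.62 (WT 2 with KO 3). With the replicate number as a block 0 members were called, as without it. Rounded values without known depth limit what can be said of members under 10.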
